A study of Homo sapiens with 6 samples.

Results

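The genes described here are the human olfactory receptor genes with a peak of H3K27me3 or H3K4me3 listed within 20 kb of a transcript start site in HL-60 cells. They were taken by symbol: OR, a number, letters, a number and, for some pseudogenes, a final P. This rule found 177 of the 18086 gene symbols that occur in any of the 4 peak lists of the study, 44 of class I and 133 of class II. RefSeq names 431 symbols of this form that have a transcript, so the 177 members are 41.1% of the annotated family and the rest had no line under that symbol. Of the members, 169 are annotated as protein coding and 7 carry the final P.

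HL-60 is an established human leukaemia line of the granulocyte lineage, and the labels call its cells myeloblasts. The study set HL-60 cells with a knockout of JMJD3 against parental HL-60 cells. JMJD3, also called KDM6B, is an enzyme that takes methyl groups off lysine 27 of histone H3. Both genotypes were grown in the same way, in DMEM with fetal bovine serum, and no treatment is labelled. The sources used here do not give how the knockout was made or whether the cells are 1 clone. Chromatin immunoprecipitation with sequencing was done for H3K27me3, which marks chromatin repressed by Polycomb complexes, and for H3K4me3, which marks active or poised promoters. Each genotype had 1 library per mark. Replicates are thus lacking, no difference could be tested across samples, and no p-value is given. The 2 input libraries, 1 of each genotype, were not analysed here.

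Olfactory receptors are G protein-coupled receptors that bind odorants on the cilia of sensory neurons in the nose. Each neuron transcribes a single receptor gene, and in mouse olfactory tissue the silent receptor genes are packed into heterochromatin, while clusters of enhancers bound by LHX2, EBF and LDB1 act on the chosen gene. The genes lie in clusters along the chromosomes. Class I receptors resemble those of fish and sit together in a single region of chromosome 11; class II receptors are spread over many chromosomes.

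The lists describe where peaks were called and not how much signal they held. Depth is unknown, since the lists give neither reads nor heights, and a longer list may come from a deeper library. The H3K27me3 lists held 3234 peaks in JMJD3 KO cells and 3578 in parental cells, and the H3K4me3 lists held 24943 and 33470. JMJD3 itself, gene KDM6B, had 4 promoter H3K4me3 peaks of 710 bp in all in JMJD3 KO cells and 10 peaks of 3041 bp in parental cells. Most genes had narrower H3K4me3 in JMJD3 KO cells. Over 11190 symbols with promoter H3K4me3 in both genotypes, the median summed width was 820.5 bp in JMJD3 KO and 1708.5 bp in parental cells. Neither genotype had H3K27me3 within 20 kb of KDM6B. Peaks of these marks do not show whether the gene was disrupted. Of 10 myeloblast markers fixed as a list, 7 carried promoter H3K4me3 in both genotypes (61.9% of all symbols did). Among them were MPO, SPI1 and CEBPE, while ELANE, AZU1 and LYZ did not carry it. None of the 10 carried promoter H3K27me3, but only 7.71% of all symbols did in either genotype, so 10 genes tell little here. Of 8 markers of olfactory sensory neurons, OMP, CNGA2, STOML3 and RTP1 had no line in any list, and the remaining 4 also belong to the signalling genes described further on. The antibody label of both H3K27me3 libraries names H3K4me3, so the mark was taken from the titles.

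H3K27me3 was the mark found near olfactory receptor genes, and H3K4me3 was rare there. Of the 177 members, 118 in JMJD3 KO cells and 105 in parental cells had an H3K27me3 peak within 20 kb, against 19 and 29 with an H3K4me3 peak. Over all symbols the H3K27me3 shares were 13.0% in JMJD3 KO cells and 12.9% in parental cells, and the H3K4me3 shares 75.6% and 85.0%. Over both genotypes 155 members had H3K27me3 and 29 had H3K4me3 in this range, against 18.2% and 86.3% of all symbols. Members enter the set only through a listed peak, so shares over members are raised by construction. Shares over all RefSeq protein-coding symbols do not depend on that. Of 390 coding olfactory receptor symbols, 29.5% (95% Wilson interval 25.2 to 34.2) had H3K27me3 within 20 kb in JMJD3 KO cells and 25.4% (21.3 to 29.9) in parental cells. Of 19662 other coding symbols, 7.76% (7.39 to 8.14) and 7.41% (7.05 to 7.78) did. For H3K4me3 at the promoter the order was the other way round: 1.03% (0.4 to 2.61) of receptor symbols in JMJD3 KO cells and 1.54% (0.707 to 3.32) in parental cells, against 49.4% (48.7 to 50.1) and 55.7% (55.1 to 56.4) of the other symbols. The intervals of receptors and of other genes did not overlap in any of these 4 pairs. They cover counting error only, and neighbouring genes that share a peak are not independent.

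Promoters were called marked if the centre of a peak lay at most 5 kb from a start site, or if the peak spanned that site. By this measure 49 members carried H3K27me3 in JMJD3 KO cells (27.7%, 21.6 to 34.7) and 48 in parental cells (27.1%, 21.1 to 34.1), against 4.97% and 5.11% of all symbols. The sets shared 22 genes: 27 members were marked in JMJD3 KO cells only (15.3%), 26 in parental cells only (14.7%) and 22 in both (12.4%), while 102 were marked in neither. Over all 18086 symbols the shares were 2.6% in JMJD3 KO cells only, 2.74% in parental cells only and 2.37% in both. The 3 states were thus about evenly filled among all symbols as well. Over coding symbols, which do not depend on a listed peak, 12.1% of receptors (9.18 to 15.7) were marked in JMJD3 KO cells and 11.8% (8.96 to 15.4) in parental cells, against 3.08% and 3.05% of other genes. The counts depend on the window: at 1 kb, 7 members were marked in JMJD3 KO cells only, 11 in parental cells only and 1 in both, against 0.752%, 1.05% and 0.337% of all symbols. Within 20 kb, 50 members had H3K27me3 in JMJD3 KO cells only, 37 in parental cells only and 68 in both, against 5.27%, 5.19% and 7.74% of all symbols.

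Peaks of the 2 genotypes near members seldom overlapped, yet often lay close together. Of the 150 H3K27me3 peaks near members in JMJD3 KO cells, 18.0% were overlapped by a parental peak by at least 1 bp; of the 142 parental peaks, 19.7% were overlapped by a JMJD3 KO peak. In the whole lists these shares were 29.6% and 27.2%. Within 10 kb, however, 55.3% of the JMJD3 KO peaks near members and 61.3% of the parental ones had a peak of the other genotype, against 57.4% and 59.4% of the whole lists. Within 50 kb it was 74.7% and 83.8%, against 68.7% and 73.8%. Peaks near members had a median width of 1040 bp in JMJD3 KO cells and 813 bp in parental cells, and they covered 181 kb and 145 kb. In the whole lists the medians were 1032 bp and 909 bp, and the peaks covered 4170 kb and 4220 kb. OR6B2 shows how a state can turn on the window. In JMJD3 KO cells its nearest H3K27me3 peak, 3716 bp wide, was centred 7001 bp from the start site and so did not count as promoter. In parental cells a peak of 909 bp was centred at 3689 bp and counted. The gap between these peaks was 999 bp. OR5B3 was just inside the window in JMJD3 KO cells, at 4961 bp, and OR52H1 just outside it, at -5093 bp. In parental cells OR52E8 was just inside at 4970 bp and OR51M1 just outside at 5094 bp.

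Peaks of H3K27me3 were not gathered at the start sites of receptor genes. Of the pairs of a peak and a member transcript, 8.81% lay within 2 kb in JMJD3 KO cells and 9.0% in parental cells, where an even spread over 20 kb gives 10%. The whole lists had 10.0% and 10.3%, so the flat spread was not particular to receptor genes. The nearest gene of a peak was a member for 143 of 150 peaks in JMJD3 KO cells and for 138 of 142 in parental cells. These peaks were taken because they lay within 20 kb of a member, which raises both counts. H3K4me3 pairs behaved differently: 0 of 62 member pairs in JMJD3 KO cells and 1 of 76 in parental cells lay within 2 kb, against 56.5% and 52.7% of the pairs of the whole lists.

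**Figure D1:**
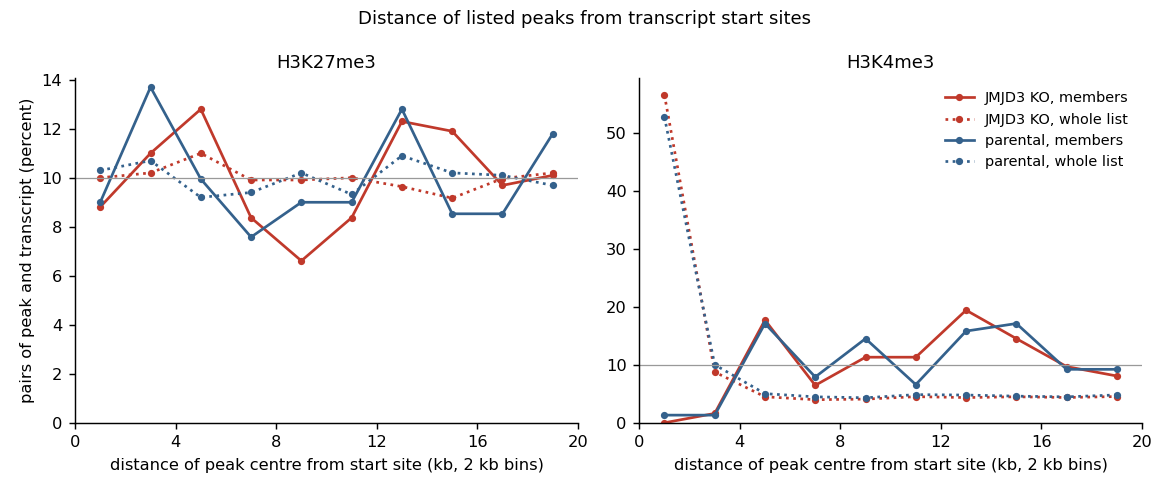
Distance of peak centres from transcript start sites, as the percentage of peak and transcript pairs (vertical axis) in 2 kb bins (horizontal axis, kb), for H3K27me3 on the left and H3K4me3 on the right. Red is JMJD3 KO and blue is parental, solid lines are olfactory receptor genes, dotted lines are the whole lists and the grey line is the 10% of an even spread. H3K4me3 of the whole lists peaks in the first bin at 56.5% in JMJD3 KO and 52.7% in parental cells, while receptor genes have 0 and 1 pair there.

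The members marked in JMJD3 KO cells only had promoter peaks with a summed width of 298 bp to 3651 bp. OR4L1, a class II receptor of the chromosome 14 cluster, had 3651 bp in JMJD3 KO cells and 0 bp in parental cells, with the start site spanned. OR5AK4P, a pseudogene, had 2437 bp, OR8D4 2253 bp, OR52N1 2172 bp and OR2J3 2119 bp in JMJD3 KO cells, and all 4 had 0 bp in parental cells. OR2J3 is a receptor for the grassy odorant cis-3-hexen-1-ol. The widest among those marked in parental cells only was OR7A17, with 0 bp in JMJD3 KO cells and 1703 bp in parental cells. OR10A3, OR1Q1, OR2AG1 and OR51E2 also had 0 bp in JMJD3 KO cells, and had 1463, 1430, 1397 and 1292 bp in parental cells. OR51E2 is known as the prostate-specific G protein-coupled receptor because it is also expressed outside the nose. The widest parental-only member was thus narrower than the JMJD3 KO-only members named here. This compares only the widest of each set. The widest member of all, OR1N2, had 4792 bp in parental cells and was marked in both genotypes.

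The 22 members marked in both genotypes had a median summed width of 1715 bp in JMJD3 KO cells and 1084 bp in parental cells, and a median log2 ratio of 0.38, with 13 wider in JMJD3 KO cells and 9 wider in parental cells. Over all 429 symbols marked in both the median log2 ratio was 0.01. The quartiles of the members' ratio, -1.15 and 1.66, lay on both sides of 0. Width says how far a called region reaches, not how much of the mark it holds. OR4F6 had 4032 bp in JMJD3 KO cells and 2857 bp in parental cells, and OR56A3 had 3998 bp and 3320 bp. OR4K2 had 3249 bp in JMJD3 KO cells and 408 bp in parental cells. The opposite order was seen for OR1N2, with 2586 bp in JMJD3 KO cells and 4792 bp in parental cells, for OR1J1, with 1223 bp and 3512 bp, and for OR10A6, with 486 bp and 3998 bp. No common direction was seen among these 22 genes.

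**Figure D2:**
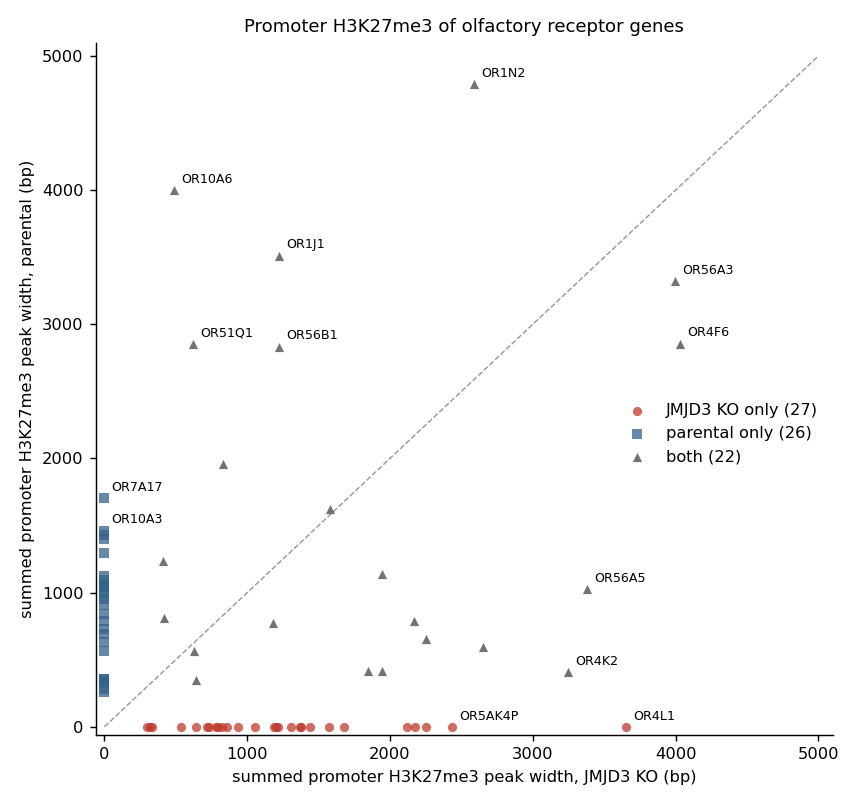
Summed width of promoter H3K27me3 peaks (bp) of each marked olfactory receptor gene in JMJD3 KO cells (horizontal axis) and parental cells (vertical axis), 1 point per gene, with 27 genes marked in JMJD3 KO only (red circles), 26 in parental only (blue squares) and 22 in both (grey triangles). The dashed line marks equal width. OR4L1 reaches 3651 bp on the JMJD3 KO axis with no parental peak, while the highest parental-only gene, OR7A17, reaches 1703 bp.

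A peak over the start site itself was rare. In JMJD3 KO cells H3K27me3 spanned the start sites of OR56B1, OR4C3, OR4F6, OR4L1, OR56A3 and OR2J3, and in parental cells those of OR4F6, OR1J4 and OR4F15. Only OR4F6 was spanned in both. Of all symbols 0.63% were spanned in JMJD3 KO cells and 0.691% in parental cells. The share of members was higher than this in both genotypes, but shares over members are raised by construction. No H3K4me3 peak spanned a start site of a member in either genotype.

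The promoter sequences of the widest members with a RefSeq window in each state are printed to show the base content of receptor promoters. They are not the sequences under the peaks, most of which lay elsewhere in the promoter region: among these 8 genes a peak spanned the start site at OR4L1 and OR56A3 only, both in JMJD3 KO cells. Each is the 300-base window of GRCh38.p14, from 250 bases before the RefSeq start to 50 after it, 5′ to 3′ on the strand of the gene, with every CpG dinucleotide in capitals. These coordinates are of another build than those of the peaks and were not matched to them. OR4L1 (chr14:20059795-20060094, plus strand) and OR8D4 (chr11:123901917-123902216, plus strand) were marked with H3K27me3 in JMJD3 KO cells only, OR7A17 (chr19:14886083-14886382, minus strand) and OR10A3 (chr11:7941659-7941958, minus strand) in parental cells only, and OR1N2 (chr9:122552862-122553161, plus strand) and OR56A3 (chr11:5942001-5942300, plus strand) in both. OR10AD1 (chr12:48203243-48203542, minus strand) and OR52W1 (chr11:6198974-6199273, plus strand) carried H3K4me3 in both.
OR4L1: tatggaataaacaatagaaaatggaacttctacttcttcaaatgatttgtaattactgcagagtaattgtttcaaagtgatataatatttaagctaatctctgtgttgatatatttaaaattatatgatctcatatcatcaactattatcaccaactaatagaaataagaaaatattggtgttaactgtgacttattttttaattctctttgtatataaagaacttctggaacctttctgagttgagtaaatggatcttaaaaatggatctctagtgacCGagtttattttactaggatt
OR8D4: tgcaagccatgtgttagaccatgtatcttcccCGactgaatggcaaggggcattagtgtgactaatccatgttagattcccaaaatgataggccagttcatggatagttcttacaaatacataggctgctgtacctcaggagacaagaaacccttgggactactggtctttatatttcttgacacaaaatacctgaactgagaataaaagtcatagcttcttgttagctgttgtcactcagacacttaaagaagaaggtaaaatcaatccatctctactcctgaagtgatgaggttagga
OR7A17: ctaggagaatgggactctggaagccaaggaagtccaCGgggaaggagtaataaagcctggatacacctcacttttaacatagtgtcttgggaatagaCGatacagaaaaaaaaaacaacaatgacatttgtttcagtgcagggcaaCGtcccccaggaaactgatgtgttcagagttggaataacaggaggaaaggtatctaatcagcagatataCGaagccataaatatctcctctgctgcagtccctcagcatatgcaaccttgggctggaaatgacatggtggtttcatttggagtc
OR10A3: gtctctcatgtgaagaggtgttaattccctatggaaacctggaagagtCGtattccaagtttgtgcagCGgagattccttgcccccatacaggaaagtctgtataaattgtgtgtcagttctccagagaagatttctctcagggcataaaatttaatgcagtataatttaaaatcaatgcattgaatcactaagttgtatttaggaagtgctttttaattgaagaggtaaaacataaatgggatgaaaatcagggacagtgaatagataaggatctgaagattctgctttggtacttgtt
OR1N2: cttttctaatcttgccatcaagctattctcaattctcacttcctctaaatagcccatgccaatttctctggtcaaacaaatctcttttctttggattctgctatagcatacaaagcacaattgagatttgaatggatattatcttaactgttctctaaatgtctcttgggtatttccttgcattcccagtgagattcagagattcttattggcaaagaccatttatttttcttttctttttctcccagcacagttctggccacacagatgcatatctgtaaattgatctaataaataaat
OR56A3: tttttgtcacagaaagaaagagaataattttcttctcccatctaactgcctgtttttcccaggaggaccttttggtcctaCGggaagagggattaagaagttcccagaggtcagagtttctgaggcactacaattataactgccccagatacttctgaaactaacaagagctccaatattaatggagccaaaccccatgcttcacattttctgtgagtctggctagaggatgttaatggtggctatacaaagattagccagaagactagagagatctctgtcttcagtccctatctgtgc
OR10AD1: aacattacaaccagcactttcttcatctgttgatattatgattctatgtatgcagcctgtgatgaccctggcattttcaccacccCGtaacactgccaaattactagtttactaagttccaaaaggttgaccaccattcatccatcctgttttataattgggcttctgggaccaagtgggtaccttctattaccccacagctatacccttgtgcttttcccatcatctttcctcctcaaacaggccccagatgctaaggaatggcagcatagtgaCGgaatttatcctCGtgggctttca
OR52W1: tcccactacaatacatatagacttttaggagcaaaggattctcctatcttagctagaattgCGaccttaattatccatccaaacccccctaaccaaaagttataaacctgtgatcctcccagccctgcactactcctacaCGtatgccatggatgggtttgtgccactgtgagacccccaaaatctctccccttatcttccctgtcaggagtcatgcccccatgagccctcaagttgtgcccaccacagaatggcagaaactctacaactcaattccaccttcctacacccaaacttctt

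These windows were poor in CpG. OR1N2 held 0 CpG, OR4L1, OR8D4 and OR56A3 held 1 each, OR10A3 and OR52W1 held 2, OR10AD1 held 3 and OR7A17 held 4. GC content ran from 26.3% in OR4L1 to 47.0% in OR52W1. The same was true of the family at large: over 324 windows of the family the median was 1 CpG, and 95.1% had 5 CpG or fewer, against a median of 14 CpG and a share of 33.1% over 34792 windows of other genes. Median GC content was 37.7% in family windows and 58.7% in the others. Of the 177 members, 123 had a window. The median was 1 CpG in each of 4 sets: members marked with H3K27me3 in JMJD3 KO cells only, in parental cells only, in both, and without promoter H3K27me3. Genes outside the family that carried promoter H3K27me3 in either genotype had a median of 8 CpG, and those with H3K4me3 in both had 26. The members' medians thus did not differ by state.

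**Figure D3:**
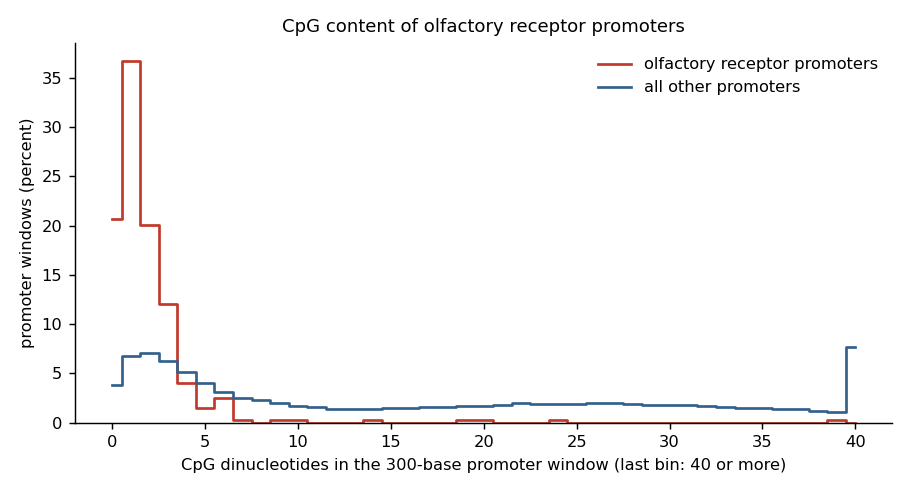
CpG dinucleotides in 300-base RefSeq promoter windows (horizontal axis, with 40 or more in the last bin) as a percentage of windows (vertical axis), for 324 windows of the olfactory receptor family (red) and 34792 windows of other genes (blue). Family windows lie at the left, with a median of 1 CpG against 14.

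Motifs were searched on both strands of each window as plain letters. TAATTA, the core bound by homeodomain factors such as LHX2, was in 22.2% of family windows and 4.84% of all windows. TATAAA, the TATA box, was in 34.6% and 11.5%. TCCCNNGGG, the core bound by EBF factors, was in 4.63% and 8.86%. The first 2 motifs are made of A and T and the third mostly of G and C, and the windows differ in base content as given above. Among the printed windows, TAATTA starts at base 50 in OR4L1 and at base 68 in OR52W1, counted from the 5′ end. TATAAA starts at base 215 in OR4L1, 169 in OR8D4, 102 in OR10A3, 151 in OR10AD1 and 101 in OR52W1, and TCCCNNGGG at base 151 in OR8D4. None of these matches overlap one another. In 40.1% of family windows, OR4L1, OR10AD1 and OR52W1 among them, the first transcribed base was the A of an ATG, against 1.94% of other windows. For such a gene the annotated start may be the start codon rather than the start of transcription, so distances to it can miss the true promoter.

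The 177 members fell into 30 clusters when a gap of over 1 Mb between neighbouring start sites ended a cluster, and 12 of these held 1 member. H3K27me3 peaks lay in 18 clusters in JMJD3 KO cells and in 15 in parental cells, 11 of them shared. Of the 30 clusters, 10 had more peaks in JMJD3 KO cells and 10 had more in parental cells. Some of these differences were small, such as 14 against 13 peaks from OR5D13 to OR5B21 and 16 against 14 from OR11H2 to OR6S1. Several clusters differed by more, in both directions. They were not compared with other stretches of the genome. In the whole lists only 29.6% of JMJD3 KO and 27.2% of parental H3K27me3 peaks were overlapped by the other genotype.

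On chromosome 6, the cluster from OR2W1 to OR2H2 (10 members, start sites from 29012952 to 29555682 in hg19) lies beside the genes of the major histocompatibility complex. It held 14 H3K27me3 peaks covering 13801 bp in JMJD3 KO cells and 0 peaks in parental cells. Of its members, 7 were marked at the promoter in JMJD3 KO cells: OR2J3 with 2119 bp, OR2W1 with 1678 bp, OR5V1 with 1442 bp, OR2H2 with 1379 bp, OR2J2 with 1187 bp, OR11A1 with 735 bp and OR14J1 with 298 bp. OR2W1 is a receptor that answers to many odorants. The other members, OR12D3, OR12D2 and OR10C1, had JMJD3 KO peaks within 20 kb but none at the promoter. Peaks near no member within 1 Mb of the cluster also differed, with 11 in JMJD3 KO cells and 4 in parental cells, while the whole of chromosome 6 had 274 and 241. What part the surroundings had in the difference was not tested.

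On chromosome 11, the cluster from OR6X1 to OR10G7 (9 members, 123625226 to 123909708) had 14 peaks of 17199 bp in all in JMJD3 KO cells and 1 peak of 562 bp in parental cells. The parental peak, chr11:123883292-123883853, marked OR10G4, which had 562 bp there against 630 bp in JMJD3 KO cells. OR8D4, OR10S1 and OR10G7 had 2253, 1571 and 793 bp in JMJD3 KO cells and 0 bp in parental cells. Other peaks within 1 Mb numbered 7 in JMJD3 KO cells and 4 in parental cells. On chromosome 9, a group of 3 members from OR13C8 to OR13D1 had 3 peaks in JMJD3 KO cells and 0 in parental cells, none of them at a promoter.

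On the same chromosome 9, the cluster from OR1J1 to OR5C1 (12 members, 125240205 to 125551211) ran the other way, with 10 peaks of 12340 bp in JMJD3 KO cells and 20 peaks of 22361 bp in parental cells. OR1J4, OR1Q1, OR1L1, OR1L3 and OR1L6 had no promoter H3K27me3 in JMJD3 KO cells and had 258, 1430, 1097, 1048 and 561 bp in parental cells. OR1J1, OR1J2 and OR1N2 were marked in both, and no member was marked in JMJD3 KO cells only. No other peak lay within 1 Mb in either genotype, and chromosome 9 as a whole had 100 peaks in JMJD3 KO cells and 80 in parental cells. On chromosome 19, the cluster from OR7C1 to OR10H3 (6 members) had 2 peaks in JMJD3 KO cells and 9 in parental cells. Chromosome 19 as a whole had 25 peaks in JMJD3 KO cells and 58 in parental cells.

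**Figure D4:**
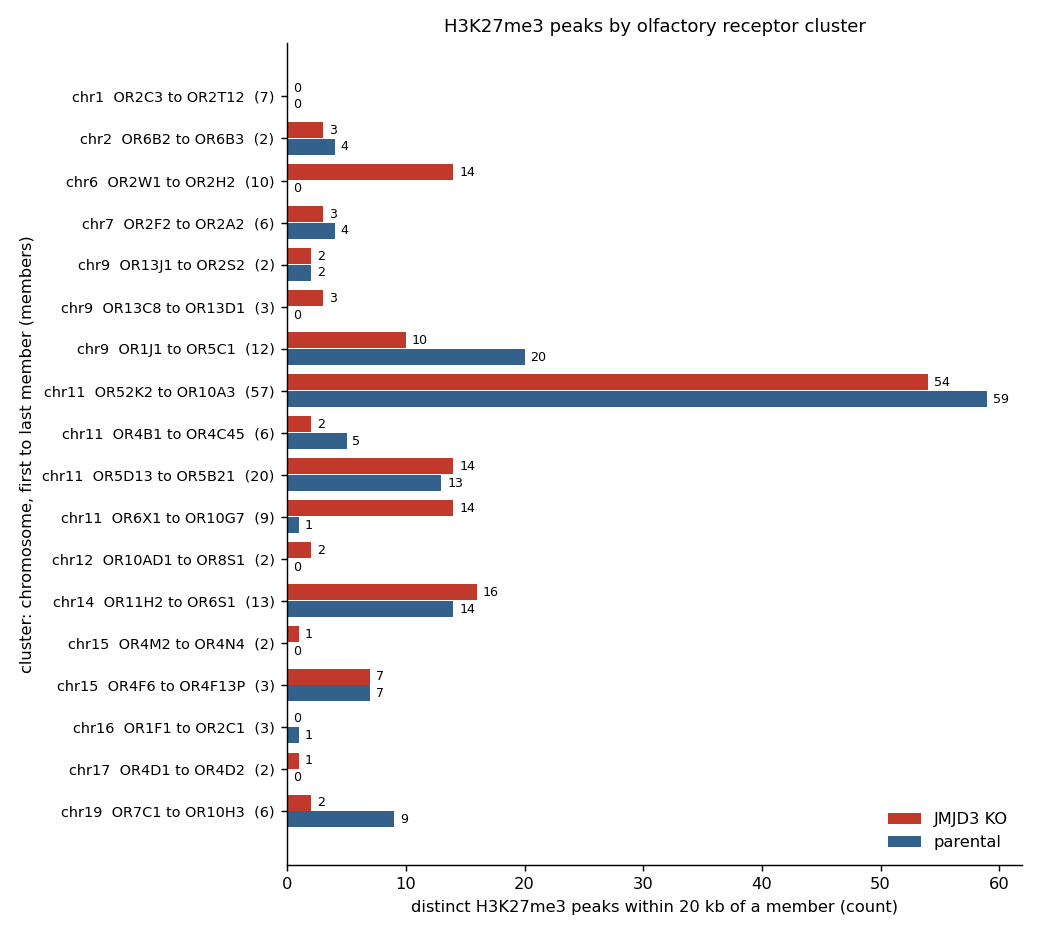
Number of distinct H3K27me3 peaks within 20 kb of a member (horizontal axis) for each cluster of 2 or more olfactory receptor genes (vertical axis, with the number of members in brackets), JMJD3 KO in red above parental in blue. The chromosome 6 cluster has 14 against 0 peaks and the OR6X1 to OR10G7 cluster 14 against 1, while the OR1J1 to OR5C1 cluster has 10 against 20.

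The largest cluster, OR52K2 to OR10A3 on chromosome 11 (57 members, 4470524 to 7961067), holds all 44 class I members and 13 of class II. It had 54 peaks of 58029 bp in JMJD3 KO cells and 59 peaks of 58920 bp in parental cells. Promoter states were mixed along it, with 7 members marked in JMJD3 KO cells only, 12 in parental cells only and 11 in both. Of the class I members, 15 of 44 (34.1%, 21.9 to 48.9) were marked in JMJD3 KO cells and 20 of 44 (45.5%, 31.7 to 59.9) in parental cells. Of the 133 class II members, 34 (25.6%) and 28 (21.1%) were. In the OR56 family 4 of 5 members were marked in both genotypes, OR56A3, OR56A5, OR56B1 and OR56A4, and none in 1 genotype only. Of all members 12.4% were marked in both, and of all symbols 2.37%. OR56A5 had 3379 bp in JMJD3 KO cells and 1025 bp in parental cells, OR56A4 had 1178 bp and 776 bp, and OR56B1 had 1222 bp and 2834 bp. OR56B1 lies apart from the other 3, with OR52 genes between them, and the OR56 family was singled out after its values were seen. Of 21 OR51 members 6 were marked in JMJD3 KO cells and 9 in parental cells, and of 18 OR52 members 5 and 7. OR51E1, the neighbour of OR51E2 and also known from prostate, had no promoter H3K27me3 in either genotype, with 2 JMJD3 KO peaks and 5 parental peaks within 20 kb.

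The OR4F genes near the end of chromosome 15 carried H3K27me3 in both genotypes. Their cluster of 3 members had 7 peaks of 15610 bp in JMJD3 KO cells and 7 peaks of 12603 bp in parental cells, and all 3 members were marked in both. OR4F6 lay under the widest JMJD3 KO peak near any member, chr15:102344408-102348439, of 4032 bp. The widest parental peak near any member, chr15:102366463-102372363, of 5901 bp, lay 11023 bp from OR4F15. OR4F15 had 407 bp of promoter H3K27me3 in JMJD3 KO cells and 1232 bp in parental cells, and OR4F13P, a transcribed pseudogene, had 2653 bp and 596 bp. On chromosome 14, the cluster from OR11H2 to OR6S1 (13 members) had 16 peaks in JMJD3 KO cells and 14 in parental cells, but these covered 24238 bp and 11372 bp. OR4K5 had 1941 bp in JMJD3 KO cells and 1142 bp in parental cells, and OR4N5 had 1945 bp and 419 bp. OR4N2 and OR4K1 had 0 bp in JMJD3 KO cells, and 732 and 1004 bp in parental cells. Some of these genes have near-identical copies elsewhere, such as the OR4M and OR4N genes of chromosomes 14 and 15, and OR9G1 and OR9G9 are listed with the same start site and the same 359 bp parental peak. The sources used here do not give how reads that fit several places were treated, so the place of such peaks is uncertain.

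**Figure D5:**
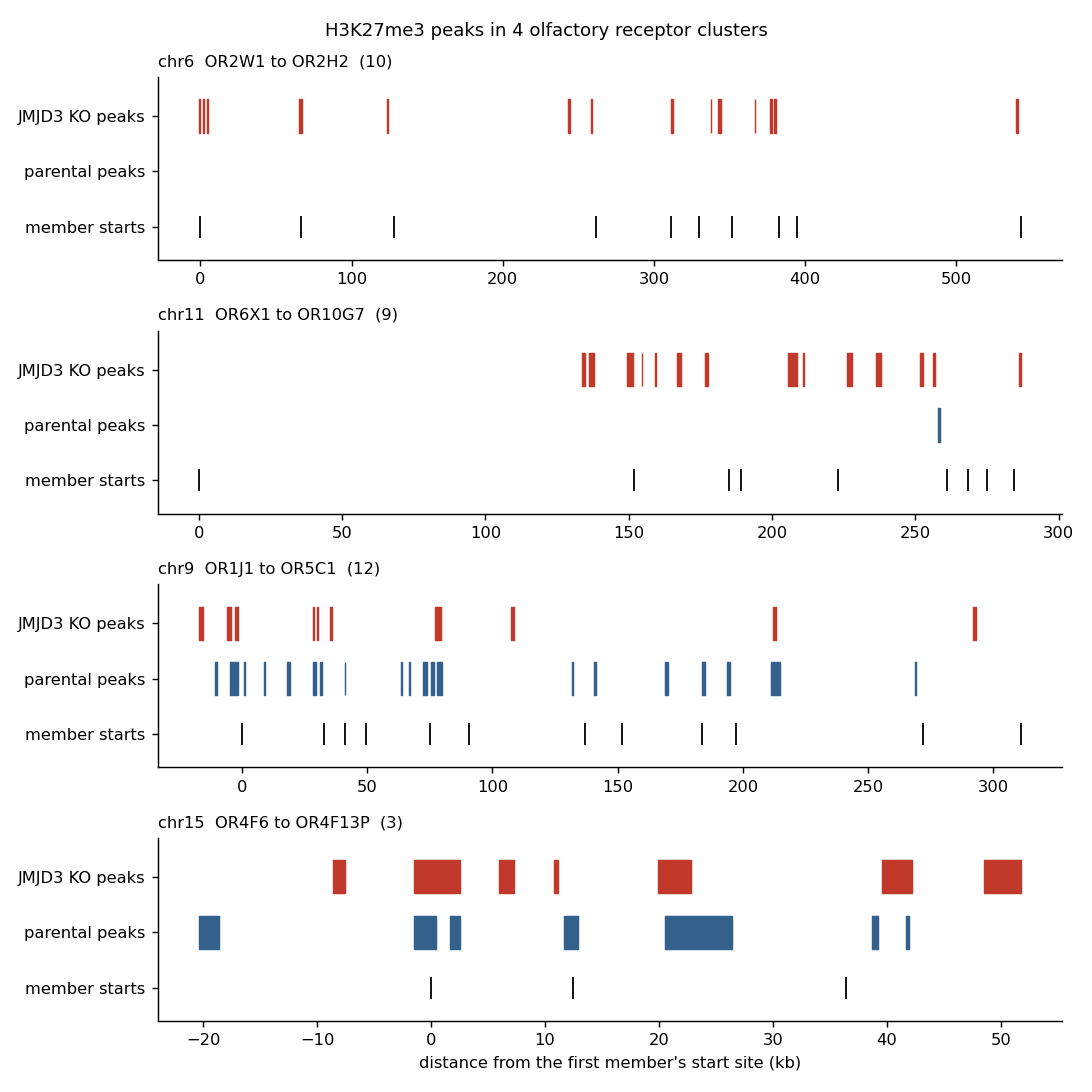
Position of H3K27me3 peaks in 4 olfactory receptor clusters, as distance in kb from the start site of the first member (horizontal axis), with JMJD3 KO peaks in red above parental peaks in blue and member start sites as black ticks. The chromosome 6 cluster has 14 JMJD3 KO peaks and no parental peak, the chromosome 11 cluster 14 and 1, the chromosome 9 cluster 10 and 20, and the OR4F cluster 7 and 7.

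Other parts of the family had little H3K27me3. Chromosome 1 has 68 annotated receptor symbols with a transcript, of which 7 were members, and none of these had an H3K27me3 peak within 20 kb in either genotype. They entered through H3K4me3, with 3 peaks in JMJD3 KO cells and 7 in parental cells. None of the 10 symbols on chromosome 3 was a member. On chromosome 17, 2 of 15 were members, against 17 of 25 on chromosome 9, 95 of 187 on chromosome 11, 14 of 27 on chromosome 14 and 11 of 19 on chromosome 6. On chromosome 11, OR2AT4, a receptor for the synthetic sandalwood odorant Sandalore, stood alone with 0 peaks in JMJD3 KO cells and 1 parental peak, centred at -18851 bp from its start site.

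H3K4me3 peaks near receptor genes were few, and many lay at start sites of other genes. There were 52 such peaks in JMJD3 KO cells, with a median width of 213.5 bp, and 63 in parental cells, with a median width of 300 bp. The nearest gene was a member for 19 of 52 peaks in JMJD3 KO cells and for 32 of 63 in parental cells. In each genotype 26 of these peaks lay within 2 kb of a start site of a gene outside the family, such as TRIM68, STX3, ATG101 or HIST1H2BO. Promoter H3K4me3 was listed for 4 members in JMJD3 KO cells and 6 in parental cells, against 62.9% and 71.3% of all symbols. None carried it in JMJD3 KO cells only, 2 in parental cells only and 4 in both, where all symbols had 0.984%, 9.45% and 61.9%.

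Each of these 6 genes had its H3K4me3 away from the start site. OR10AD1 had 193 bp in JMJD3 KO cells and 649 bp in parental cells, with centres at -4559 and -4512 bp. OR52K2 had 308 bp and 170 bp, at 4145 and 4406 bp. OR52W1 had 529 bp in JMJD3 KO cells, in 2 peaks at 2246 and 4903 bp, and 213 bp in parental cells at 2496 bp; the peak at 4903 bp was at -1441 bp from the start site of C11orf42. OR6B2 had 212 bp in JMJD3 KO cells and 348 bp in parental cells, and those peaks were 383 bp and 226 bp from the start site of NDUFA10, which codes for a subunit of mitochondrial complex I. OR4N4 and OR9A4 had 0 bp in JMJD3 KO cells, and had 372 bp and 146 bp in parental cells. OR9A4 was the only member with an H3K4me3 peak within 2 kb of its start site, at -1299 bp in parental cells. OR6B2 was also the only member with both marks at its promoter, in parental cells, where H3K27me3 covered 909 bp on the other side of the start site. For the 4 members marked in both, the median log2 ratio of width was 0.07, with 2 wider in JMJD3 KO cells and 2 in parental cells, while over 11190 symbols marked in both it was -1.01.

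Genes that carry the odorant signal inside the cell or govern receptor choice were followed as a fixed list of 30, of which 23 had a line in any peak list. Promoter H3K4me3 was in both genotypes at 11 of the 23, in parental cells only at 5 and in JMJD3 KO cells only at 0. The shares of all symbols in these states were 61.9%, 9.45% and 0.984%. These 16 genes are 69.6% of the 23, near the 72.3% of all symbols with promoter H3K4me3 in either genotype. The 11 include ADCY3, the adenylyl cyclase of olfactory cilia, with 1264 bp in JMJD3 KO cells and 2395 bp in parental cells, and CNGA4, a subunit of the cyclic nucleotide-gated channel, with 472 bp and 1288 bp. LDB1, a cofactor of LHX2, had 2075 bp and 4976 bp, KDM1A, the demethylase LSD1, 1344 bp and 1799 bp, LBR, the lamin B receptor, 1882 bp and 3597 bp, and CBX5, heterochromatin protein 1 alpha, 3011 bp and 5249 bp. All of these were wider in parental cells, as were 10736 of the 11190 symbols marked in both. The 5 genes marked in parental cells only were GNAL, the olfactory G protein alpha subunit, with 639 bp, LHX2 with 752 bp, EBF3 with 722 bp, the phosphodiesterase PDE1C with 658 bp and REEP1, which helps receptors to the cell surface, with 676 bp.

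Promoter H3K27me3 was listed at 4 of the 23 genes (17.4%, 6.98 to 37.1), against 7.71% of all symbols in either genotype, a share inside that interval. EBF1, a factor that binds receptor enhancers and is also a regulator of B cells, had 752 bp in JMJD3 KO cells and 1234 bp in parental cells. RTP4, a receptor chaperone induced by interferon, had 819 bp in JMJD3 KO cells and 0 bp in parental cells. ANO2, the chloride channel that amplifies the odorant response, had 0 bp in JMJD3 KO cells and 763 bp in parental cells, and GNAL had 0 bp and 366 bp. GNAL thus had both marks at its promoters in parental cells and neither in JMJD3 KO cells, but this rests on the 5 kb window, since within 20 kb it had both marks in both genotypes.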

How the data were processed

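Chromatin immunoprecipitation libraries of JMJD3 KO and parental HL-60 cells were compared as 4 deposited peak lists, 1 per genotype and mark. Per the submitters' processing notes, the tools were BWA 0.7.10, SAMtools and MACS2 2.1.1, with build hg19; their settings and the use of the inputs are not given in the sources used here. Per the file headers, each line pairs a peak (start and end) with a RefSeq transcript and its symbol, and adds a distance and a score. The distance deposited by the authors equals the peak centre minus the start site, always under 20 kb. The score deposited by the authors follows from the distance alone, as exp(-(0.5 + 4 × distance / 20 kb)) to within 5e-13, and was not used as strength. The deposited lists hold no counts, so depth is unknown. Printed starts count from 1, on the reading that deposited starts count from 0.

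Peaks with the same chromosome, start and end were counted as 1, with Python 3.11.15 and pandas 2.3.3. A gene's promoter width is the sum of its distinct promoter peaks. Intervals are Wilson 95% intervals (statsmodels 0.14.6) and cover counting error only. Class I was families 51, 52, 55 and 56. The scripts were tested on simulated lists. Of the 18086 symbols, 16271 matched a current RefSeq symbol and 1179 an older one. Promoter windows are RefSeq sequences of GRCh38.p14 (35116 windows, 27305 symbols).

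Genes are named by rule: members under the 5 widest H3K27me3 peaks of each genotype, the 5 widest of each promoter state, members with a spanned start site or both marks, changed signalling genes, and the neighbours of H3K4me3 promoter peaks. Other members named under a cluster, and markers, were chosen after their values were seen. The members and lists were chosen with earlier results of these data known. Alternatives changed the promoter window, the peak set, the gene assignment, the overlap, the members and the cluster gap.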

Additional observations from a re-analysis of the deposited data

How the results depend on the processing

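Counts of promoter states depended most on the window. With a window of 1 kb, members with H3K27me3 in JMJD3 KO only, parental only and both numbered 7, 11 and 1, and with peaks that span the start site 5, 2 and 1, against 27, 26 and 22 at 5 kb; at 10 kb those in both were 37. The cause in the first 2 settings is that fewer peaks enter. For H3K4me3, members in parental only and in both were 0 and 0 at 1 kb and with spanning peaks, and 5 and 8 at 10 kb, against 2 and 4. Peaks of at least 300 bp gave 2 members in JMJD3 KO only and 0 in both, and lists cut to equal length by width gave 1 in JMJD3 KO only and 1 in parental only.

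H3K27me3 peaks near members shared between genotypes fell to 10.0% of JMJD3 KO and 12.7% of parental peaks when 50% of the peak had to be covered, and to 5.33% and 5.63% with reciprocal coverage. H3K4me3 peaks near members numbered 14 in JMJD3 KO and 32 in parental cells at 300 bp or more, and 19 and 32 when each peak counted for its nearest gene only. Shared H3K4me3 peaks were 23.1% of JMJD3 KO and 19.0% of parental peaks with reciprocal coverage, and of parental peaks 23.8% with 50% covered and 34.4% at 300 bp or more.

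The number of clusters was 35 at a gap of 0.5 Mb and 25 at 3 Mb, against 30. The differences of the OR2W1 to OR2H2, OR6X1 to OR10G7 and OR1J1 to OR5C1 clusters kept their direction in the 4 settings run on peaks and members. The difference in peaks between JMJD3 KO and parental reversed for OR52K2 to OR10A3 with lists of equal length (1, against -5) and for OR5D13 to OR5B21 at 300 bp or more (-1, against 1). Differences in promoter width reversed at 10 kb for EBF1 (307 bp, against -482 bp), OR4F15 (3422 bp), OR6B2 H3K27me3 (2807 bp) and OR52K2 H3K4me3 (-275 bp), at 1 kb and with spanning peaks for OR56B1 (1222 bp in both), and with spanning peaks for EBF1 (752 bp). Of 41 such differences of named genes, 7 kept their direction and stayed within a factor of 1.5 at 1 kb. With spanning peaks 4 did, and at 10 kb 26 did. With the nearest gene only, 300 bp or more and lists of equal length, 38, 34 and 37 did. Most named widths thus hold for the 5 kb window and not for a tighter one. Beyond the construction of each setting the cause was not tested. No paired analysis was possible because each genotype had 1 library per mark, and for the same reason no replicate could be left out. Depth is unknown, so a promoter without a peak is not shown to lack the mark.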

Other observations

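Other chemoreceptor families had few members in the lists. Of the trace amine-associated receptors, most of which detect amines in the nose, 7 had a line. All 7 had H3K27me3 within 20 kb in both genotypes, against 7.74% of all symbols. At the promoter, 3 were marked in JMJD3 KO cells and 5 in parental cells, against 4.97% and 5.11% of all symbols. None of the 7 had H3K4me3 within 20 kb, so they entered the lists only through H3K27me3. Their shares are thus raised by construction. These genes also lie close together and share peaks, so they are not independent. TAAR9 had 6881 bp of promoter H3K27me3 in JMJD3 KO cells and 4471 bp in parental cells, both above the widest olfactory receptor of the same genotype except for OR1N2 in parental cells, with 4792 bp. TAAR5 had 387 bp in JMJD3 KO cells and 1190 bp in parental cells. TAAR6 had 662 bp and 0 bp, while TAAR1, TAAR2 and TAAR8 had 0 bp in JMJD3 KO cells and 600, 258 and 994 bp in parental cells. None of the 7 had promoter H3K4me3. Of the bitter taste receptors, TAS2R60 had 1114 bp of promoter H3K27me3 in JMJD3 KO cells and 1310 bp in parental cells, and TAS2R38, TAS2R40 and TAS2R42 had neither mark at the promoter.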
